A study of Homo sapiens with 2 samples.

Results

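Glycolysis and hypoxia response genes were followed in single-cell RNA sequencing data from SK-N-BE(2)-C, an established human neuroblastoma line. The 36 genes were taken by symbol from the 36027 genes of the deposited count table, and each symbol stood on 1 row. Of these, 23 act in glucose uptake, glycolysis and lactate handling, and 13 are genes known to respond to low oxygen. The cells carried a doxycycline-inducible construct for HRASV12, a mutant of the small GTPase HRAS that stays active (the labels write the line as SK-N-BE(2)-C-pIND-HRASV12, in both groups). The HRASV12 induced library came from cells kept for 13 days with doxycycline at 100 ng/ml (666 cells, 80359736 counts, median 111582 per cell). Cells of the same line left without doxycycline gave the uninduced control library (956 cells, 95350640 counts, median 85821 per cell). HRAS reached 161 CPM (counts per 1000000 of the summed counts of a group) with induction and 109 CPM without. Counting at the transcript end does not tell the construct from the native gene. The drug and the induced protein cannot be told apart in this design. There was 1 library per group, so no test was possible, and every interval below is a 95% interval for counting error only.

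A further comparison was made inside the control library. CARTPT encodes a neuropeptide precursor, and 51 of the 956 control cells (5.33%) had it at 30 CPM or more, against 905 control cells below that level. The 3 cells just inside this limit had CARTPT at 33.1, 33.6 and 34.6 CPM, and the 3 just outside had 29.2, 28.9 and 28.3 CPM. The 51 cells are called CARTPT-high cells here and held 4758733 counts, with a median of 79292 per cell. The other control cells held 90591907 counts, with a median of 86611. CARTPT chose these cells and is no finding. A single cell gave 41.8% of the CARTPT counts of the CARTPT-high cells.

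Glycolysis splits glucose into pyruvate. Transporters of the SLC2A family bring glucose into the cell, hexokinase and phosphofructokinase commit it to the pathway, and the later enzymes from GAPDH to PKM yield ATP. Lactate dehydrogenase turns pyruvate into lactate, which SLC16A transporters carry across the membrane. In low oxygen, the transcription factor subunits HIF1A and EPAS1 escape hydroxylation by the EGLN enzymes and destruction through VHL, pair with ARNT and bind DNA at a short motif with the core ACGTG or GCGTG. Known targets raise glycolytic flux, hold pyruvate back from the mitochondrion (PDK1), promote removal of mitochondria (BNIP3) and call for new vessels (VEGFA). Neuroblastoma comes from the sympathetic lineage, where oxygen sensing also bears on catecholamine-producing cells.

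The motif ACGTG or GCGTG was searched on both strands (as CACGT or CACGC on the printed strand) in the 250 bases before each RefSeq start (GRCh38.p14), of which the table held 57 for 31 of the 36 genes. The palindrome CACGTG, which is also an E-box, counts on both strands. The windows printed here are 60 bases of 10 genes that the results turn on, 5′ to 3′ on the strand of the gene, with every match in capitals. They show how many matches can lie together and how far the genes differ in this.
ADM: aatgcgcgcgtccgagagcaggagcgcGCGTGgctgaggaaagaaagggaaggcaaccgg
PFKP: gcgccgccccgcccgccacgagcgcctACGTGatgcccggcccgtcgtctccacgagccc
PDK1: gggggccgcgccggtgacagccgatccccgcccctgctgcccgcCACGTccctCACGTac
BNIP3: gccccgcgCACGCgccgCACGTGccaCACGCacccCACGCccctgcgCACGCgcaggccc
ANKRD37: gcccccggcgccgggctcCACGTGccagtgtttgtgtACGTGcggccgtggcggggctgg
HK2: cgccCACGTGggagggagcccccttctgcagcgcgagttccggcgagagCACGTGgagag
P4HA1: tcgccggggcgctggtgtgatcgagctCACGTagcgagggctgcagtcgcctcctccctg
PGK1: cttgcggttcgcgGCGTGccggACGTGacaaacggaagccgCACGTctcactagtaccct
ENO2: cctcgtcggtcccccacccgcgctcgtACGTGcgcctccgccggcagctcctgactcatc
LDHA: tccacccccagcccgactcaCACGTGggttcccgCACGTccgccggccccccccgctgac

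These windows lie at chr11:10304945-10305004 (ADM, plus strand), chr10:3069023-3069082 (PFKP, plus), chr2:172556029-172556088 (PDK1, plus), chr10:131982015-131982074 (BNIP3, minus) and chr4:185396661-185396720 (ANKRD37, plus). The others lie at chr2:74834972-74835031 (HK2, plus), chr10:73096920-73096979 (P4HA1, minus), chrX:78104024-78104083 (PGK1, plus), chr12:6914435-6914494 (ENO2, plus) and chr11:18394456-18394515 (LDHA, plus). All lie upstream of an annotated start. BNIP3 had 6 matches in its 250 bases, all inside the printed window, and the printed start of HK2 also had 6. LDHA had 5 at the start shown, PGK1 and ANKRD37 had 3, PDK1 had 2, and ADM, P4HA1, ENO2 and the printed start of PFKP had 1. Over all member starts, 33 of 57 (57.9%) held at least 1 match, against 43.2% of all 35116 starts in the table. Among the member starts, those of hypoxia genes held one in 8 of 11 and those of glycolysis genes in 25 of 46. No match was found before the starts of PGAM1, PKM, LDHB, EGLN3, SLC2A1 and P4HA2. A match describes the letters and is not evidence of binding.

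The control library carried the glycolytic chain at widely different levels. Levels here are counts of transcript ends scaled to 1000000 counts per group, about 1 count a molecule and not divided by transcript length. GAPDH was highest at 3766 CPM, followed by LDHB at 1346 CPM, PKM at 976 CPM, TPI1 at 970.1 CPM, ENO1 at 645 CPM, PGK1 at 479 CPM and PGAM1 at 356 CPM. Of the enzymes that exist in several forms, HK1 gave 92.0% of the counts of HK1 and HK2 (Clopper-Pearson interval 91.4 to 92.5), and PFKM 73.8% of those of the 3 phosphofructokinases (72.5 to 75.1). ENO1 gave 83.9% of the enolase counts, with the neuronal form ENO2 giving the rest. LDHA, at 15.7 CPM, gave 1.16% of the lactate dehydrogenase counts, and ALDOA stood at 9.69 CPM. The levels of LDHA and ALDOA are uncertain, since sequence shared with other genes can lower a count made without genome positions, which was not tested. AC093512.2, a gene that overlaps ALDOA on the same strand in GENCODE 29, stood at 0.304 CPM.

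The hypoxia genes had smaller counts than the main glycolytic enzymes there and were led by BNIP3 at 161 CPM, VEGFA at 88.1 CPM and BNIP3L at 76.0 CPM. BNIP3 and BNIP3L encode receptors for the removal of mitochondria. PDK3, a pyruvate dehydrogenase kinase, stood at 31.2 CPM and P4HA1, which hydroxylates collagen, at 19.9 CPM. NDRG1, a stress-responsive gene, stood at 6.39 CPM, PDK1 at 6.35 CPM, the oxygen sensor EGLN1 at 4.47 CPM, ANKRD37 at 3.00 CPM and ADM, the vasodilator peptide adrenomedullin, at 2.68 CPM. CA9, the membrane carbonic anhydrase used as a hypoxia marker, was nearly absent with 53 counts in 956 cells. BNIP3 has 16 annotated pseudogene rows, which together held counts equal to 4.94% of its own. Its level is uncertain, and how far sequence shared with these rows moved it was not tested.

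**Figure D1:**
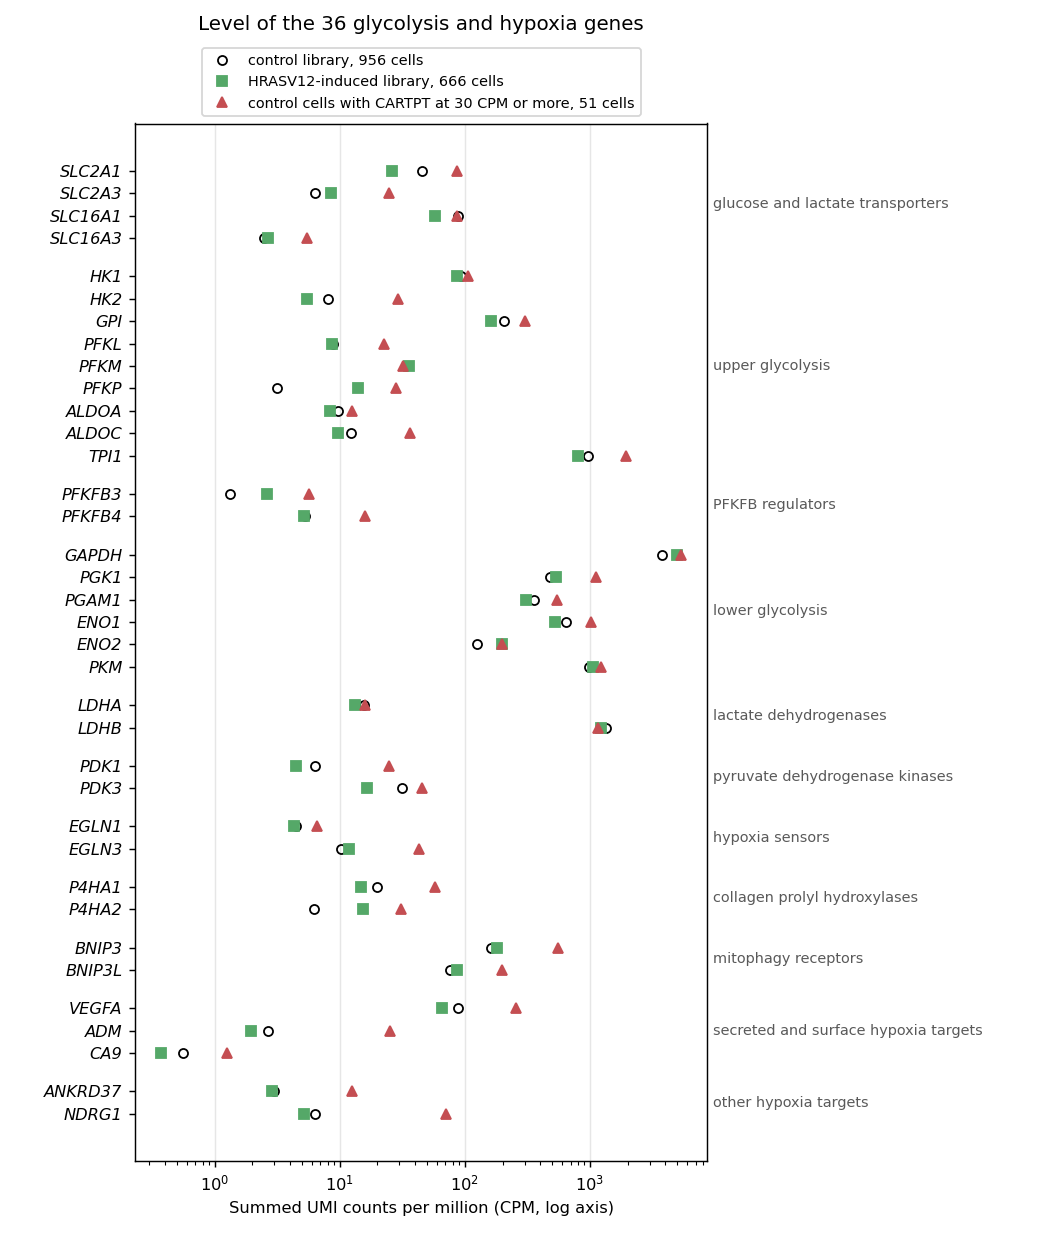
Level of each of the 36 genes in summed CPM (log axis), grouped by role, in the control library (open circles), the HRASV12-induced library (squares) and the CARTPT-high control cells (triangles). For most hypoxia genes the triangles stand to the right of both other symbols, as for NDRG1 at 71.0 against 6.39 CPM in the whole control library.

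The first comparison asked how these genes differed between the induced and the control library. A gene with at least 10 CPM in either group was called measured, and a ratio of at least 1.5-fold either way was counted, on a log2 scale with 1 CPM added. Of the 36 genes 23 were measured. In the induced library 3 were at least 1.5-fold higher, beside 10.3% of all 9017 measured genes, and 3 were at least 1.5-fold lower, beside 7.73%. Of the 3 higher, PFKP and P4HA2 were under 10 CPM in the control library and had to be higher to be measured. With the limit set on the level over both libraries together 22 passed, of which 2 were higher, beside 9.16% of 8568 genes, and 3 lower, beside 7.48%. The median log2 ratio was -0.13 over the 23 genes and -0.04 over all measured genes. As a group the members therefore stood near the background. Over the 36 genes without any filter, 13 had a log2 ratio above 0.

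Glucose and lactate transporters had lower counts in the induced library where they were measured. SLC2A1, the main glucose transporter of most cells, stood at 26.3 CPM in induced and 45.7 CPM in control cells, with a ratio of 0.575 (0.546 to 0.606, exact). Among the 406 induced and 871 control cells within limits on mitochondrial share and MALAT1, the log2 ratio of SLC2A1 was -0.54, within 1.5-fold. SLC16A1, a lactate transporter, stood at 57.5 against 88.8 CPM, a ratio of 0.648 (0.625 to 0.671). It was within 1.5-fold with TMM scaling (log2 -0.51), with cells thinned and among the cells within the same limits. Over the settings run, S and G2/M calls apart, its log2 ratio lay from -0.71 to -0.36. The neuronal glucose transporter SLC2A3 stood at 8.49 against 6.37 CPM and the lactate exporter SLC16A3 at 2.69 against 2.50 CPM, both under the limit for a measured gene. SLC2A1 gave 75.6% of the counts of SLC2A1 and SLC2A3 in induced and 87.8% in control cells.

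Phosphofructokinase differed in its makeup. PFKP, the platelet form, stood at 14.0 CPM in induced and 3.17 CPM in control cells, a ratio of 4.41 (3.88 to 5.03), the highest of the 36 genes. PFKM, the muscle form, stood at 36.1 against 33.9 CPM and PFKL, the liver form, at 8.74 against 8.86 CPM. PFKP thus gave 23.8% of phosphofructokinase counts in induced cells (22.6 to 25) and 6.90% in control cells (6.16 to 7.69). With each cell thinned to 53000 counts, 27.2% of 562 induced cells and 7.05% of 766 control cells had a PFKP count. PFKFB3, which makes the activator of phosphofructokinase, had 210 counts against 127, at 2.61 and 1.33 CPM. PFKFB4, of the same family, stood at 5.21 against 5.30 CPM.

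Most other enzymes of the chain lay within 1.5-fold. GPI stood at 163 CPM in induced and 206 CPM in control cells, TPI1 at 808 against 970.1 CPM, ENO1 at 525 against 645 CPM and PGAM1 at 309 against 356 CPM. GAPDH went the other way, at 4930 against 3766 CPM, a ratio of 1.31 (1.30 to 1.32), as did PGK1 at 539 against 479 CPM, though not in cells with a G1 call (log2 -0.15), and PKM at 1060.0 against 976 CPM. ENO2 stood at 199 against 124 CPM, a ratio of 1.61 (1.57 to 1.65), so that ENO1 gave 72.5% of enolase counts in induced cells. HK1 stood at 86.4 against 93.1 CPM, HK2 at 5.45 against 8.10 CPM, ALDOC at 9.62 against 12.3 CPM, ALDOA at 8.36 against 9.69 CPM, LDHA at 13.3 against 15.7 CPM and LDHB at 1233 against 1346 CPM. Summed, the 23 glycolysis genes stood at 10051 CPM in induced and 9203 CPM in control cells. Without GAPDH the sums were 5121 and 5437 CPM, a ratio of 0.942 (0.938 to 0.946), so the direction of the sum rested on GAPDH.

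Among hypoxia genes PDK3 was lowest in the induced library, at 16.5 against 31.2 CPM, a ratio of 0.529 (0.495 to 0.565). P4HA2, a collagen prolyl hydroxylase, was highest, at 15.3 against 6.22 CPM, a ratio of 2.46 (2.23 to 2.71). Its partner P4HA1 stood at 14.7 against 19.9 CPM. P4HA1 gave 49.1% of the counts of this pair in induced and 76.2% in control cells. VEGFA stood at 65.4 against 88.1 CPM, while BNIP3 stood at 182 against 161 CPM, BNIP3L at 86.1 against 76.0 CPM and EGLN3, an oxygen sensor that is itself a hypoxia target, at 11.8 against 10.2 CPM, of which BNIP3, BNIP3L and EGLN3 were on the other side in cells with a G1 call. PDK1, EGLN1, ADM, ANKRD37, NDRG1 and CA9 were below 10 CPM in both libraries. The 13 hypoxia genes summed to 411 CPM in induced and 416 CPM in control cells, a ratio of 0.988 (0.974 to 1.003). In the same comparison 32 of 39 measured genes of S phase and 44 of 54 of G2 and M were at least 1.5-fold lower in induced cells, beside 7.73% of all measured genes. The median mitochondrial percent was 11.1 against 13.2, and the fibroblast and endothelial markers summed to 85.2 against 41.0 CPM and 73.1 against 105 CPM. The higher fibroblast sum came mostly from LUM at 64.5 against 18.5 CPM. PDGFRB, the other measured fibroblast marker, went the other way at 6.46 against 16.3 CPM, and 5 of the 7 had a log2 ratio above 0. The lower endothelial sum came from EGFL7 at 53.4 against 96.4 CPM, while 5 of the 7 endothelial markers had a log2 ratio above 0, among them ESAM at 10.7 against 3.22 CPM. Their part in these differences was not tested.

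Of some low genes in the control library, a large share lay in the 51 CARTPT-high cells, which held 4.99% of the library's counts. They held 55.5% of its NDRG1 counts (51.5 to 59.5), 46.9% of its ADM counts and 44.4% of its PFKP counts, and next 24.6% of its P4HA2 counts. Against the other control cells alone, NDRG1 was on the other side, at 5.16 CPM with induction and 2.99 CPM in those cells. ADM stood at 1.94 against 1.5 CPM and PFKP at 14.0 against 1.85 CPM in that setting.

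**Figure D2:**
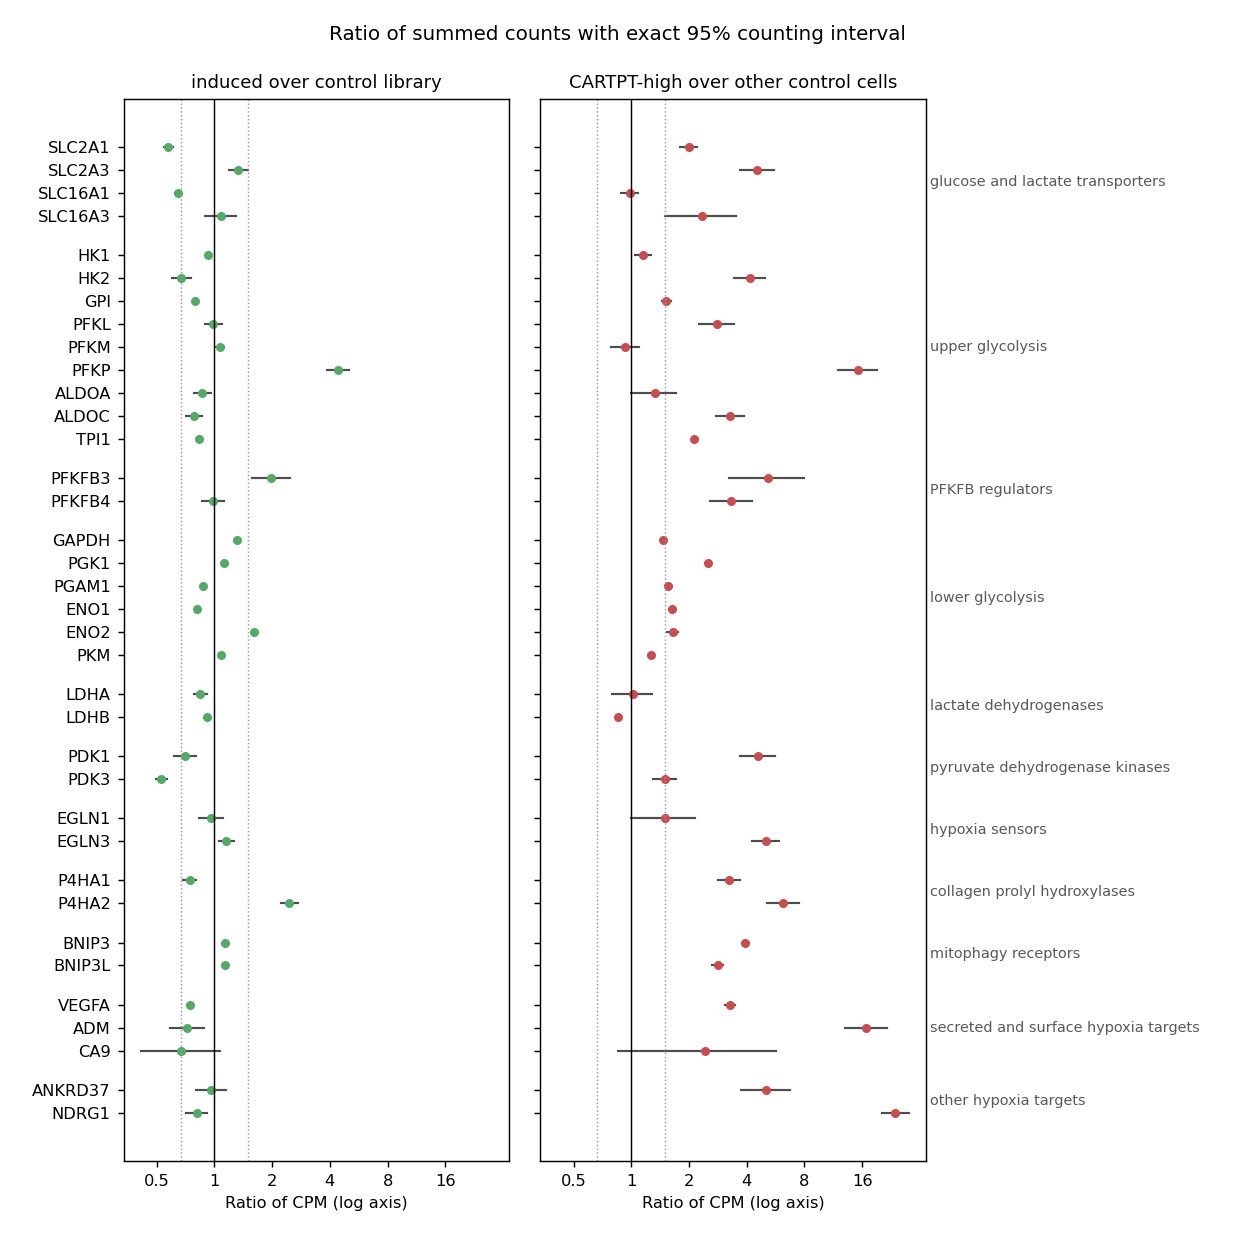
Ratio of summed CPM for each of the 36 genes (log axis) with its exact 95% counting interval, induced over control library on the left and CARTPT-high over other control cells on the right. Dotted lines mark 1.5-fold either way; the left panel holds ratios from 0.529 for PDK3 to 4.41 for PFKP, and the right panel from 0.857 for LDHB to 23.7 for NDRG1.

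The second comparison set the CARTPT-high cells against the other control cells, both from 1 library. Here the members stood apart from the background. Of the 36 genes, 33 had a log2 ratio above 0 without any filter, with a median of 1.2, against a median of -0.09 over all 36027 genes. With a limit of 10 CPM over both groups together, which does not favour genes high in the smaller group, 21 members passed. Of these 13 were at least 1.5-fold higher, beside 4.07% of 8549 genes, and 0 were at least 1.5-fold lower, beside 10.9%. With the limit applied to either group, 32 were measured, 12 of them only through the CARTPT-high cells, where they had to be higher. In that setting 23 were at least 1.5-fold higher, beside 6.04% of 8900 genes, and 0 lower, beside 10.7%. Both groups came from cells of the same culture and library, and the split has no replicate.

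NDRG1 had the highest ratio of the 36 genes. It stood at 71.0 CPM in CARTPT-high and 2.99 CPM in other control cells, from 338 and 271 counts, a ratio of 23.7 (20.2 to 28.0). ANKRD37, a direct target of HIF1A, stood at 12.6 against 2.49 CPM, a ratio of 5.05 (3.74 to 6.75). ADM stood at 25.2 against 1.5 CPM, a ratio of 16.8 (13.0 to 21.6), with 23.3% of its CARTPT-high counts from 1 cell. VEGFA, the vascular growth factor, stood at 258 against 79.2 CPM, a ratio of 3.26 (3.07 to 3.47). CA9 had 6 counts against 47, too few to place it.

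The mitophagy receptors were higher together. BNIP3 stood at 551 CPM in CARTPT-high and 140.2 CPM in other control cells, a ratio of 3.93 (3.76 to 4.10), and BNIP3L at 196 against 69.7 CPM, a ratio of 2.82 (2.63 to 3.02). Both pyruvate dehydrogenase kinases among the 36 genes, which shut the entry of pyruvate into the citrate cycle, were higher, but unequally: PDK1 stood at 24.6 against 5.39 CPM and PDK3 at 45.4 against 30.4 CPM. PDK2, of the same family but not among the 36, stood at 18.3 against 26.2 CPM, a ratio of 0.697 (0.556 to 0.863). PDK1 gave 35.1% of the counts of this pair in CARTPT-high cells (30 to 40.5) and 15% in the others (13.8 to 16.3). The oxygen sensor EGLN3 stood at 42.9 against 8.53 CPM, a ratio of 5.02 (4.28 to 5.87), while EGLN1 had 31 counts against 395, at 6.51 and 4.36 CPM. The collagen hydroxylases P4HA1, at 57.8 against 17.9 CPM, and P4HA2, at 30.7 against 4.93 CPM, had ratios of 3.23 (2.83 to 3.67) and 6.22 (5.12 to 7.51). Summed, the 13 hypoxia genes stood at 1323 CPM against 368 CPM, a ratio of 3.59 (3.50 to 3.69).

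In glycolysis, summed counts were higher for genes of glucose uptake and of several steps before pyruvate. SLC2A3 stood at 24.6 CPM in CARTPT-high and 5.41 CPM in other control cells, a ratio of 4.55 (3.68 to 5.57), and SLC2A1 at 86.6 against 43.5 CPM, a ratio of 1.99 (1.79 to 2.20). The SLC2A1 counts differed less in the typical cell, as the thinned median was 2 counts in both groups. For SLC2A3 the median was 0 in both, with a count in 37.5% of CARTPT-high and 23.3% of other control cells. SLC2A1 was within 1.5-fold in cells with an S (log2 0.35) or G2/M call (log2 0.23). HK2, the inducible hexokinase, stood at 29.0 against 7.0 CPM, while HK1 stood at 107 against 92.4 CPM. HK1 gave 78.6% of hexokinase counts in CARTPT-high cells (75.2 to 81.7) and 93.0% in the others (92.4 to 93.5). GPI stood at 305 against 201 CPM.

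Among phosphofructokinases PFKP stood at 28.2 CPM in CARTPT-high and 1.85 CPM in other control cells, a ratio of 15.2 (12 to 19.2), and PFKL at 22.7 against 8.14 CPM, a ratio of 2.79 (2.26 to 3.42). PFKM stood at 31.7 against 34.0 CPM. The muscle form gave 38.4% of these counts in CARTPT-high cells (33.6 to 43.4) and 77.3% in the others (76.0 to 78.6). The regulators PFKFB4, at 15.8 against 4.75 CPM, and PFKFB3, at 5.67 against 1.10 CPM, had ratios of 3.32 (2.56 to 4.25) and 5.14 (3.23 to 7.93). PFKFB3 rested on 27 counts and was below the limit for a measured gene.

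Further down the chain the ratios were smaller and the counts larger. ALDOC, the brain aldolase, stood at 36.1 CPM in CARTPT-high and 11 CPM in other control cells, and ALDOA at 12.6 against 9.54 CPM. TPI1 stood at 1947 against 919 CPM, a ratio of 2.12 (2.07 to 2.17), and PGK1 at 1114 against 445 CPM, a ratio of 2.50 (2.43 to 2.57). ENO1 stood at 1017 against 625 CPM, ENO2 at 198 against 120.1 CPM and PGAM1 at 540.3 against 347 CPM, with ratios from 1.56 to 1.65. With cells thinned, PGAM1, ENO2 and GPI were within 1.5-fold. GAPDH stood at 5365 against 3682 CPM, a ratio of 1.46 (1.44 to 1.48), and PKM at 1226 against 963 CPM, a ratio of 1.27 (1.24 to 1.31), both under 1.5-fold, though GAPDH was over it (log2 0.70) with TMM scaling. Summed without GAPDH, the glycolysis genes stood at 8018 against 5301 CPM, a ratio of 1.51 (1.5 to 1.53).

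The measured lactate genes lay within 1.5-fold. LDHB, which had most of the lactate dehydrogenase counts, stood at 1162 CPM in CARTPT-high and 1356 CPM in other control cells, a ratio of 0.857 (0.834 to 0.880). LDHA had 76 counts against 1425, at 16 and 15.7 CPM, a ratio of 1.02 (0.795 to 1.28), although its start carries the motif matches printed above. SLC16A1 stood at 87.2 against 88.9 CPM. SLC16A3, under the limit for a measured gene, had 26 counts against 212, at 5.46 and 2.34 CPM, a ratio of 2.34 (1.49 to 3.52).

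Single cells did not carry these differences alone. Leaving out, gene by gene, the CARTPT-high cell with the most counts left 22 of the 23 measured genes at least 1.5-fold higher. Of the 23, SLC2A3, HK2, PFKL, PFKP, PFKFB4, PDK1, EGLN3, P4HA2, ADM, ANKRD37 and NDRG1 had been measured only through the CARTPT-high cells. Those had to be higher while all cells were counted. Of the rest, only GPI fell within 1.5-fold (log2 0.56). The largest share of a gene's CARTPT-high counts from 1 cell was 33.3%, for CA9 with its 6 counts, and the smallest was 4.15%, for GAPDH. The 13 hypoxia genes were summed in each cell after thinning to 53000 counts, which left 40 of 51 CARTPT-high, 726 of 905 other control and 562 of 666 induced cells. Their median was 6.70 counts per 10000 in CARTPT-high cells, 3.40 in other control cells and 3.77 in induced cells. The unthinned medians were 7.49, 3.30 and 3.81. At 20000 counts per cell, which kept all 51 CARTPT-high cells, they were 10.5, 3.5 and 4. Of the 40 CARTPT-high cells, 37 were above the median of the other control cells and 20 were above their 95th percentile of 6.93. The middle range in CARTPT-high cells ran from 4.91 to 17.2, against 2.64 to 4.15 in other control cells, so part of the CARTPT-high cells lay among the others and part far above.

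The reverse view gave a partial overlap. Of the 766 thinned control cells, 38 were above the control library's own 95th percentile of the hypoxia sum, and 17 of them (44.7%) were CARTPT-high. Another 11 of the 38 had no CARTPT count. In the induced library 15 of 562 cells (2.67%, 1.5 to 4.36) were above the same level, beside 21 of 726 other control cells (2.89%). Without thinning, against the control percentile of that setting, it was 8 of 666 induced (1.2%) and 23 of 905 other control cells (2.54%). At 20000 counts per cell it was 7 of 660 (1.06%) and 22 of 905 (2.43%). For the 22 glycolysis genes without GAPDH, the medians were 70.4 counts per 10000 in CARTPT-high, 55.3 in other control and 49.8 in induced cells, and 17 of the 40 CARTPT-high cells were above the 95th percentile of the other control cells.

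**Figure D3:**
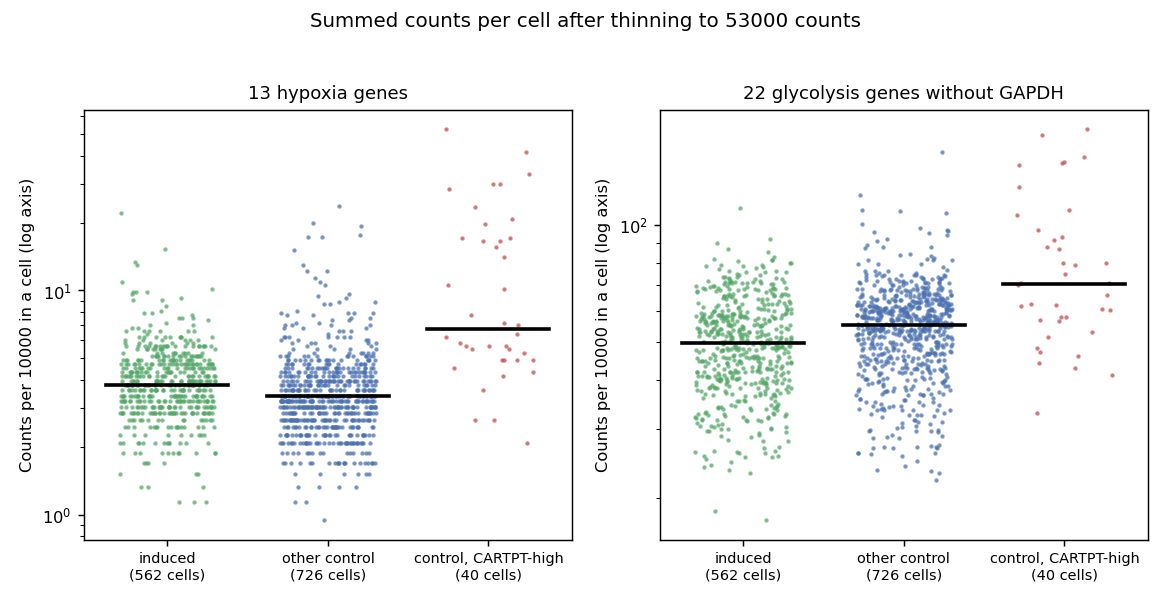
Summed counts per 10000 in each cell after thinning to 53000 counts (log axis), for the 13 hypoxia genes (left) and the 22 glycolysis genes without GAPDH (right), with the median as a bar. The hypoxia sum reaches 52.5 in CARTPT-high cells, against 23.8 in other control and 22.3 in induced cells, while the lower CARTPT-high cells lie among the rest.

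The share of cells with at least 1 count was also higher in CARTPT-high cells for several genes of low level. After thinning, EGLN3 was found in 67.5% of CARTPT-high and 31.0% of other control cells, P4HA2 in 70.0% against 21.9%, NDRG1 in 42.5% against 9.5%, ADM in 37.5% against 7.02% and PFKP in 40.0% against 5.23%. The unthinned shares of NDRG1 were 54.9% and 18.1%, and those of ADM 54.9% and 11.2%. The thinned share went against the CPM for EGLN1 (17.5% against 20.1%), SLC2A1 (75% against 79.9%), VEGFA (90% against 95%), PFKM and CA9, and no order is read from those shares. The libraries hold no cell type that should lack these genes, so the share due to free RNA is unknown. GAPDH, PGK1, PGAM1, ENO1, PKM, TPI1, GPI and LDHB were found in every thinned cell of both control groups.

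The members were also read against the amount of CARTPT. Control cells were put in 4 classes: no CARTPT count (749 cells), above 0 and under 30 CPM (156 cells), 30 to under 100 CPM (21 cells) and 100 CPM or more (30 cells). BNIP3 stood at 132, 169, 427 and 639.8 CPM in this order (610.4 to 670.4 in the last). NDRG1 stood at 2.38, 5.22, 27.6 and 102 CPM, ADM at 1.55, 1.33, 13.5 and 33.7 CPM, and VEGFA at 79.3, 78.6, 131 and 350.3 CPM. SLC2A3 was near level over the first classes, at 5.24, 6.04 and 6.51 CPM, and stood at 37.6 CPM in the last. LDHB went from 1396 CPM without CARTPT to 1055 CPM in the highest class. The cells above 0 and under 30 CPM had a median depth of 129158 counts against 81130 in cells without CARTPT, as a deep cell is more likely to show a count.

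**Figure D4:**
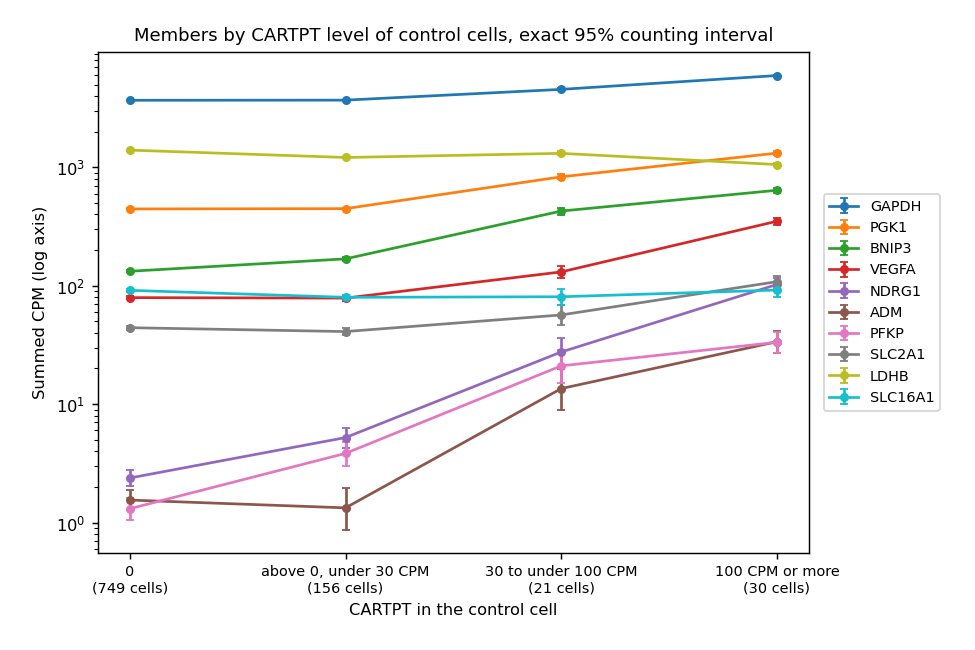
Summed CPM (log axis) of 10 member genes in control cells placed by their CARTPT level, with exact 95% counting intervals. NDRG1, ADM and PFKP differ most between the classes, with NDRG1 at 2.38 CPM in cells without CARTPT and 102 CPM in cells at 100 CPM or more, while SLC16A1 and LDHB stay within a narrow range.

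In the induced library 6 cells had CARTPT at 30 CPM or more, from 14 CARTPT counts and 287073 counts in all. Their hypoxia genes summed to 1101 CPM (983 to 1229), against 411 CPM in the whole induced library. NDRG1 stood at 149.8 CPM there, from 43 counts, against 4.65 CPM in the other 660 induced cells. PDK1 stood at 38.3 against 4.32 CPM and HK2 at 48.8 against 5.30 CPM. CA9 had 11 counts in these 6 cells and 19 in the other 660. ADM had none, which at 3 counts allows up to 10.5 CPM. The unthinned hypoxia sum had a median of 4.35 per 10000 in the 6 cells, and 1 of them was above the other control cells' 95th percentile, so the total rested on few cells.

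Cell cycle phase differed between the groups compared, and the members were therefore read within phases called from S and G2/M gene lists. After thinning, G1 calls made up 50% of 40 CARTPT-high cells (33.8 to 66.2) and 18.2% of 726 other control cells (15.4 to 21.2), and 60.9% of induced cells. Within G1 calls, the CARTPT-high cells had 25 of 31 measured members at least 1.5-fold higher, beside 7.32% of all measured genes, and 0 lower, beside 13% of them. Of the 25, SLC2A3, HK2, PFKL, PFKP, ALDOA, PFKFB4, PDK1, P4HA2, ADM and NDRG1 were under 10 CPM in the other control cells. Those had to be higher to be measured. The hypoxia sum of the CARTPT-high cells was 1552 CPM against 418 CPM in other control cells with the same call. NDRG1 stood at 77.1 against 3.96 CPM, ADM at 34.6 against 1.17 CPM, SLC2A1 at 94.4 against 29.3 CPM and PGK1 at 1448 against 466 CPM there.

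Within G2/M calls, from 12 and 374 cells, 17 of 29 were higher, beside 6.12%, and 0 lower, beside 17.3%. Of the 17, SLC2A3, HK2, PFKL, PFKP, PDK1, EGLN3, P4HA2, ANKRD37 and NDRG1 were under 10 CPM in the other control cells. These too had to be higher to be measured. The hypoxia sum was 900 CPM (854 to 947) against 357 CPM. Within S calls, from 8 and 220 cells, 7 of 26 were higher, beside 7.53%, and 1 was lower, beside 11.6%. That one was ALDOA, at 5.20 against 10.1 CPM. The 7 were HK2, PFKL, PDK1, EGLN3, P4HA1, P4HA2 and BNIP3, with EGLN3 at 35.1 against 7.37 CPM. Of these, only P4HA1 and BNIP3 reached 10 CPM in the other control cells, and the rest had to be higher to be measured. In S calls SLC2A3 (log2 -0.26), ALDOC (-0.09), PFKFB4 (-0.03), PFKFB3 (-0.79) and ENO2 (-0.18) were on the other side of 0 from their ratios over all cells. The hypoxia sum was 627 CPM (572 to 685) against 351 CPM in S calls, a smaller gap than in G1.

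Between the libraries in G1 calls (342 induced, 152 control cells), 6 of 25 measured members were at least 1.5-fold lower, beside 6.86%, and 3 higher, beside 12.7%. The 6 were SLC2A1, SLC16A1, ALDOC, PDK3, VEGFA and NDRG1, with VEGFA at 67.9 against 116 CPM and NDRG1 at 6.04 against 13.4 CPM. ALDOC, at 9.23 against 14.9 CPM, and NDRG1 were under 10 CPM in induced cells and had to be lower to be measured. PFKP, 1 of the 3 higher, was under 10 CPM in control cells (7.58 CPM) and had to be higher. Of the 152 control cells with a G1 call 20 were CARTPT-high. Against the other control cells with that call, VEGFA (89.3 CPM there) and ALDOC (9.23 against 10.6 CPM) were within 1.5-fold. NDRG1 was on the other side, at 6.04 against 3.96 CPM. SLC2A1, at 18.6 against 29.3 CPM, and PDK3, at 12.1 against 25.4 CPM, were still lower in induced cells. The hypoxia sum in G1 calls was 445 CPM in induced, 564 CPM in all control and 418 CPM in other control cells. In S calls 1 of 21 was higher (ENO2), beside 4.8%, and 0 lower, beside 1.26%. In G2/M calls 2 of 22 were higher (PFKP and ENO2), beside 6.32%, and 1 was lower (PDK3), beside 4.12%. PFKP was under 10 CPM in control cells here too.

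**Figure D5:**
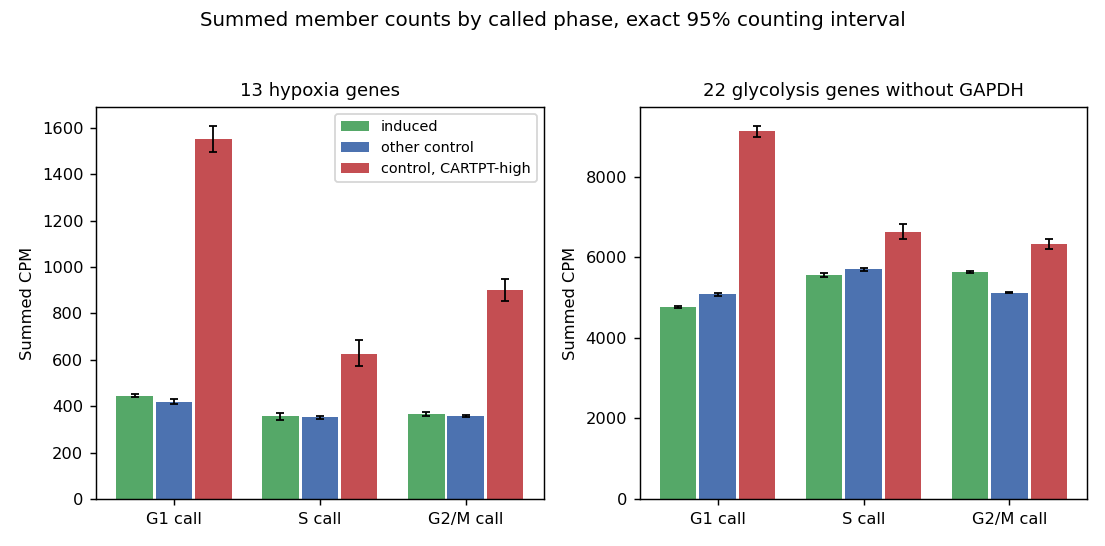
Summed CPM by called phase for the 13 hypoxia genes (left) and the 22 glycolysis genes without GAPDH (right) in induced, other control and CARTPT-high control cells, with exact 95% counting intervals. CARTPT-high cells are highest in each phase, with hypoxia sums of 1552, 627 and 900 CPM in G1, S and G2/M calls, and the gap is largest in G1.

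Genes that work beside the members were taken as lists. Of 29 hypoxia targets outside the 36 genes, 27 had a log2 ratio above 0 in CARTPT-high against other control cells without any filter, with a median of 1.19. With the limit of 10 CPM over both groups together 17 passed, of which 11 were at least 1.5-fold higher and 0 lower, beside 4.07% and 10.9% of all genes. With the limit in either group 23 passed, 7 of them only through the CARTPT-high cells, where they had to be higher, and 17 were higher, beside 6.04%. CA12, a carbonic anhydrase like CA9 and 1 of those 7, stood at 42.2 against 1.78 CPM and the transcription factor BHLHE40, another of them, at 27.7 against 2.03 CPM, while the histone demethylase KDM4B stood at 29.0 against 28.5 CPM and the glycogen synthase GYS1 at 15.1 against 13.8 CPM. Of 9 measured genes of gluconeogenesis and glycogen 1 was higher, beside 6.04%, the branching enzyme GBE1, at 59.5 against 11.7 CPM. PCK2 stood at 33.2 against 23.8 CPM and G6PC3 at 82.0 against 87.7 CPM.

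The machinery that reads oxygen stood nearer the background. Of 11 measured HIF pathway components 1 was at least 1.5-fold higher in CARTPT-high cells, EPAS1, at 50 against 13.5 CPM, and 1 lower, the coactivator CREBBP, at 25.6 against 50 CPM. Over all 8900 measured genes 6.04% were higher and 10.7% lower, which also stands beside the counts of the lists that follow. HIF1A stood at 207 against 159 CPM and EP300 at 35.5 against 46.6 CPM. Of 30 genes of pyruvate entry and the citrate cycle 0 were higher and 1 was lower, PC, at 10.3 against 16.1 CPM. FH stood at 51.7 against 77.9 CPM, PDP1 at 12.4 against 9.91 CPM and SDHB at 83.4 against 71.6 CPM. The 9 measured genes of the pentose phosphate pathway all lay within 1.5-fold, from PRPS2 at 13.4 against 19.0 CPM and TALDO1 at 132 against 158 CPM to RPIA at 19.5 against 18.1 CPM and PGD at 85.7 against 79.1 CPM. Of 4 measured minor glycolytic isozymes 2 were lower, PGAM2 at 32.2 against 64.2 CPM and SLC16A7 at 17.0 against 26.8 CPM. ADPGK stood at 26.1 against 28.1 CPM and BPGM at 21.4 against 24.5 CPM.

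In the induced against the control library the same lists were mostly level. Over all 9017 measured genes 10.3% were higher and 7.73% lower. Of 20 measured hypoxia targets outside the members 2 were higher and 1 was lower. HMOX1, among the higher ones, stood at 42.7 against 4.93 CPM, also answers to other signals and passed only through the induced cells. The lower one, AK4, stood at 6.78 against 11 CPM and passed only through the control cells. HILPDA stood at 39.8 against 56.3 CPM. Of 12 HIF pathway components 1 was higher, CITED2, which competes with HIF subunits for their coactivators, at 12 against 1.93 CPM, and it too passed only through the induced cells. HIF1A stood at 214 against 162 CPM, VHL at 10.3 against 13.3 CPM and EP300 at 35.6 against 46.0 CPM.

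Of 30 genes of pyruvate entry and the citrate cycle 0 passed 1.5-fold either way, beside 10.3% of all genes higher and 7.73% lower. PDP1 stood at 14.9 against 10.0 CPM, MPC1 at 225 against 185 CPM, PDP2 at 17.6 against 24.9 CPM and PC at 10.9 against 15.9 CPM. Of 9 pentose phosphate genes 1 was lower, PRPS2 at 10.5 against 18.7 CPM. TKT stood at 246 against 284 CPM and RPIA at 24.0 against 18.2 CPM. Among 5 minor glycolytic isozymes ENO3 was higher, at 26.4 against 9.72 CPM, and passed only through the induced cells. PGAM2 was lower, at 39.9 against 62.6 CPM, with BPGM at 32.7 against 24.3 CPM and SLC16A7 at 25.9 against 26.3 CPM. Of 9 genes of gluconeogenesis and glycogen PYGB was higher, at 19.3 against 12 CPM. G6PC3 stood at 126 against 87.4 CPM and PGM1 at 13.2 against 14.7 CPM.

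Other genes moved with the CARTPT-high cells, and their part in the results was not tested. Genes of S phase were at least 1.5-fold lower in 24 of 39 cases, and those of G2 and M in 35 of 54, beside 10.7% of all measured genes. Of 9 measured adrenergic markers 2 were higher, beside 6.04%, and 4 lower, and the 10 markers summed to 1912 against 3071 CPM. DBH, a catecholamine enzyme, stood at 314 against 83.9 CPM. The 7 endothelial markers summed to 539 against 81.8 CPM, nearly all from EGFL7 at 521 against 74.1 CPM. ESAM stood at 8.20 against 2.96 CPM, CDH5 at 3.78 against 0.817 CPM, VWF at 3.57 against 0.121 CPM, PECAM1 at 1.89 against 3.13 CPM and CLDN5 at 0.420 against 0.431 CPM, with KDR at 0. The 7 fibroblast markers summed to 129 against 36.4 CPM, and both measured ones were higher, LUM at 92.5 against 14.6 CPM and PDGFRB at 28.6 against 15.6 CPM. COL1A1 stood at 4.2 against 2.12 CPM, DCN at 2.10 against 1.09 CPM, COL3A1 at 1.26 against 1.68 CPM, COL1A2 at 0.420 against 0.806 CPM and PDGFRA at 0.420 against 0.419 CPM. The 5 Schwann cell precursor markers found summed to 61.2 against 43.7 CPM, the 3 immune ones to 1.05 against 1.79 CPM and the 4 erythroid ones to 3.15 against 1.68 CPM. The median mitochondrial percent was 14.9 in CARTPT-high and 13.0 in other control cells, and MALAT1, a nuclear RNA, stood at 2922 against 3420.3 CPM.

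Across thinned cells, pairs of glycolysis genes had a weakly positive median correlation within each library. The 13 with a mean of at least 1 count per cell in both libraries form 78 pairs, with a median Spearman rho of 0.129 over 766 control and 0.131 over 562 induced cells, against 0.0089 and 0.0105 over all gene pairs at that level. The all-gene pairs share only this lower limit and were not matched to the members in level, so the gap is not read as particular to the pathway. The highest pair was PGK1 with ENO1 in control cells, at 0.58, and ENO1 with PKM in induced cells, at 0.60. The lowest pair stood at -0.18 in control and -0.30 in induced cells. TPI1 with GAPDH stood at 0.56 and 0.55. Of the hypoxia genes 3 reached that level, and BNIP3 with BNIP3L stood at 0.22 in control and 0.10 in induced cells. Without the CARTPT-high cells the control value was 0.15. These values describe cells of 1 library each, which share their preparation and the same thinned depth.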

How the data were processed

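Droplet libraries (10x Genomics Chromium, 3' chemistry) came from 1 doxycycline-treated and 1 untreated culture. The authors deposited whole-number counts per gene and cell (36027 genes, 1622 cells), gene symbols, and an annotation with each cell's type and mitochondrial percent, per the file headers. All 1622 cells are annotated as singlets, and 0 barcodes are shared between libraries. Reads were counted with kallisto and bustools, tools named without versions in the submitters' processing notes; for build and gene models, nothing is given in the sources used here. Counts were summed and scaled to CPM. Log2 ratios use a pseudocount of 1 CPM, which understates low genes. Ratios have exact conditional intervals, sums Poisson and shares Clopper-Pearson intervals. A count of 0 allows up to 3 counts. Thinning to 53000 counts dropped 104 cells of the induced and 190 of the control library. Phases were called with scanpy 1.11.5. edgeR 4.0.16 and DESeq2 1.42.0 gave scaling factors only. The calculation was tested on simulated data. Members, lists and the rule for named genes (all members, and the 2 highest and 2 lowest measured genes of each other list) were chosen with earlier results of these data known. Some genes that this rule names are not reported here. DBH, PDK2 and the endothelial and fibroblast markers were named after their values were seen. Alternatives were other scalings, filters, pseudocounts, cell subsets, CARTPT limits and thinning depths; a limit on the level over both groups together and leaving out the top cell per gene were chosen after seeing the data.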

Additional observations from a re-analysis of the deposited data

How the results depend on the processing

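No paired analysis was possible because each group is 1 library. Of the counts of members past 1.5-fold, CARTPT-high against other control cells gave 18 to 26 higher and 0 lower under the other scalings, pseudocounts, CARTPT limits and cell subsets run with the limit of 10 CPM in either group (of phases, G1 only; S and G2/M calls stand in the report), 13 with that limit over both groups together and 12 with a filter at 50 CPM. Induced against control gave 1 higher and 1 lower with a filter at 50 CPM, 1 lower among cells within limits on mitochondrial share and MALAT1, and 6 lower in G1 cells; the smaller counts at 50 CPM come with fewer genes measured (14 and 17), and the cause of the others was not tested. TMM and DESeq2 scaling moved the all-gene median from -0.04 to 0.08 and 0.13 (induced) and from -0.15 to 0.01 and 0.02 (CARTPT-high). The higher share of all genes past 1.5-fold went from 57.2% to 73.9% and 80% (induced; 40.5% with totals free of ribosomal protein and mitochondrial genes) and from 36.2% to 63.8% and 65.7% (CARTPT-high). The members' median went from -0.13 to -0.01 and 0.03, and from 1.35 to 1.49 and 1.5. With DESeq2 size factors LDHB, HK1, PFKL, PFKFB4, EGLN1 and ANKRD37 changed sign in induced cells, and PFKM and SLC16A1 in CARTPT-high cells. In G1 cells PGK1, BNIP3, BNIP3L, EGLN3, SLC16A3 and PFKL changed sign in induced cells; all were within 1.5-fold. With 20000 counts per cell, which kept all 51 CARTPT-high cells, their hypoxia median was 10.5. Phase calls without thinning gave, for induced cells, 2 higher members in S and 2 higher and 8 lower in G1, and for CARTPT-high cells 27 higher in G1 and 6 higher and 1 lower in S. Isozyme shares that moved beyond their interval with thinning were, in percent, ALDOA 46.8 (control) and 48.7 (other control), EGLN1 7.53 (CARTPT-high), ENO1 86.0 (CARTPT-high), 84.9 (control), 73.6 (induced) and 84.9 (other control), HK1 86.0 (CARTPT-high) and 92.7 (control), LDHA 1.08 (control), 1.21 (induced) and 1.08 (other control), P4HA1 52.5 (induced), PDK1 18.5 (control) and 17.2 (other control), PFKL 13.8, PFKM 59.4 and PFKP 26.8 (induced), SLC16A1 96.2 (CARTPT-high), 97.8 (control) and 97.9 (other control), and SLC2A1 77.6 (induced). Of the members' single log2 ratios, 203 moved beyond their counting interval in CARTPT-high and 207 in induced cells, and 445 and 333 did not; none with at least 1.5-fold among all cells changed sign in these settings, which hold no S or G2/M subset.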
